A study of Mus musculus with 6 samples.

Results

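The proteasome is the protease of the cytosol and nucleus that breaks down proteins tagged with ubiquitin. Its core particle is a barrel of stacked rings of alpha subunits (Psma genes) and beta subunits (Psmb genes), and the cutting sites face the inside of the beta rings. A regulatory particle caps the barrel: its ATPases (Psmc genes) unfold the substrate and thread it inward, and its non-ATPase subunits (Psmd genes) bind and remove the ubiquitin chain. Embryonic stem cells are known for high proteasome activity. The members were 31 rows of the deposited table picked by gene symbol, 14 of the core (7 alpha and 7 beta) and 17 of the regulatory particle (6 ATPases and 11 non-ATPase subunits), of 12331 rows in all. The list of symbols was drawn up with earlier results of these data known.

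The series compared ways of turning amplified cDNA into a sequencing library. The RNA of every library was taken from 1 established line of mouse embryonic stem cells, E14tg2a, with no stated genetic change or drug, grown in serum medium with LIF, the cytokine that keeps such cells undifferentiated. Total RNA was diluted to 10 pg, about that of a single cell, copied from its poly(A) tails, and amplified over 20 PCR cycles, so by the protocol the starting material was bulk RNA at single-cell amount, although the sample descriptions call it a lysate of a single cell. In 3 libraries (sonication) the cDNA was sheared by ultrasound and ligated to adaptors, and in 3 libraries (tagmentation) it was cut and tagged by hyperactive Tn5 transposase. Both groups carry the numbers 1 to 3, called technical replicates in the labels, so the p-values say nothing of separate cultures. Without a term for the number they rest on how far the libraries of a method lie apart, which may be technical. With such a term, as in the test between numbers, they rest on how far the difference between methods varies over the numbers.

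Levels are RPKM, reads scaled by the length of the gene model and by the alignments of the library. The cDNA was copied from poly(A) tails and amplified, and coverage along each gene and its amplification were not measured. Orders and ratios between different genes are therefore those of RPKM, and whether they hold for transcript numbers was not tested. The libraries had 18852822 to 34681566 alignments. Libraries of the same number went together across genes whatever the method, which bears on every result below. Over the 31 subunits, log2(RPKM + 1) correlated by 0.915 to 0.971 between methods within a number and by 0.239 to 0.530 between number 1 and the other numbers. Between numbers 2 and 3 it was 0.833 and 0.853. These values are across genes, which are not independent replicates. The labelled cell type was checked on 8 stem cell genes. The summed level of the 8 was 898 to 2349 RPKM in the 6 libraries, of which Dppa5a gave 455 to 1739 RPKM. Of the 8 genes, 6 stood at 1 RPKM or more in all libraries, among them Pou5f1 with 91.5 to 260 RPKM. Nanog was at 0 in the pair numbered 3, and Klf4 had 0.336 and 0.141 RPKM in number 1. Of fibroblast markers, Col1a1, Col1a2 and Col3a1 were under 1 RPKM in all libraries, and Thy1 reached 12.1 RPKM in sonication library 1. The mesoderm gene T reached 61.3 and 83.2 RPKM in the pair numbered 2, against 0.145 and 0.209 RPKM in the pair numbered 1; Pax6 and Cdx2 were under 1 RPKM throughout. The part of these markers in the subunit levels was not tested.

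All 31 subunits were found in all 6 libraries at 1 RPKM or more, as were 57.6% of the 6327 genes tested. At 10 RPKM or more in all libraries stood 26 of the 31, against 27.0% of the genes tested. The median of the subunits' mean levels was 93.4 RPKM, and that of all tested genes was 14.8 RPKM. Together they took 1.13% to 1.275% of the summed RPKM of a library. The deposited RPKM could be turned back into whole reads for 29 subunits. These had 65 reads (Psmd11 in sonication library 3) to 25482 reads (Psmc5 in tagmentation library 3), with a median of 3518. Amplified reads without molecular identifiers are not separate molecules, so these numbers bound the counting error only.

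**Figure D1:**
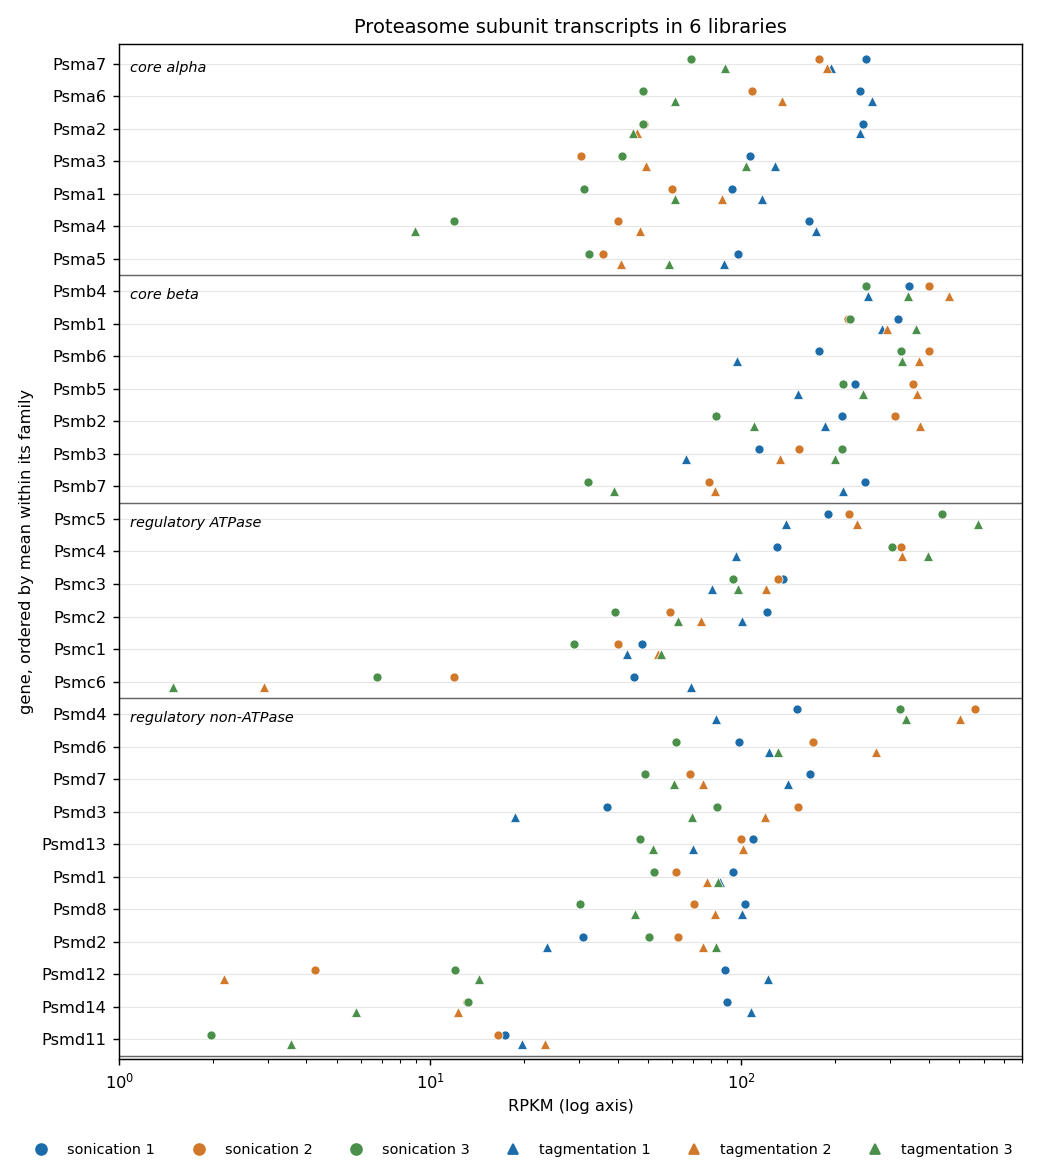
RPKM (log axis) of the 31 subunits in each library, grouped by family and ordered by mean; circles are sonication, triangles tagmentation, and colours the replicate number. Psmd12, Psmc6, Psma4 and Psmd14 spread over the widest part of the axis, while Psmb1, Psmb4 and Psmc1 stay within a narrow band.

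Beta subunits had the highest median RPKM of the families. Their median of mean levels was 261 RPKM, against 76.6 RPKM for alpha subunits, 93.0 RPKM for ATPases and 75.9 RPKM for non-ATPase subunits. The beta gene models were short, with 731 to 1036 bases. Those recovered for alpha genes had 881 to 1420 bases, and the longest of all, Psmd1, had 3256. The part of model length in the order of the families was not tested. Psmb4, a structural beta subunit, led all 31 with 346, 402 and 251 RPKM after sonication and 255, 463 and 344 RPKM after tagmentation, in each case for numbers 1, 2 and 3, the order kept throughout. Psmd4, the ubiquitin receptor of the regulatory particle, came next by its mean of 327 RPKM, and Psmc5, an ATPase, followed with 300.2 RPKM. Given the spread between libraries, these 3 cannot be put in order: Psmd4 was above Psmb4 in both libraries of number 2 and in sonication library 3, and below it in the other 3 libraries. The lowest means belonged to Psmd11 (13.7 RPKM) and Psmc6 (22.8 RPKM).

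The alpha ring was at its highest in number 1 throughout. All 7 alpha subunits had their highest level in number 1 in both methods, while among the tested genes 33.6% did. Psma7, the alpha subunit with the highest mean, had 251, 177 and 69.1 RPKM after sonication and 194, 188 and 88.7 RPKM after tagmentation. Psma5, the lowest, had 97.5, 35.8 and 32.3 RPKM after sonication and 87.9, 41.1 and 58.6 RPKM after tagmentation. In Psma5 the libraries of number 1 stood above the other 4, and the methods overlapped. Psma4 was the most uneven: it had 165, 40.1 and 12.0 RPKM after sonication against 174, 47.4 and 8.91 RPKM after tagmentation, so both methods put number 1 highest and number 3 lowest. Psma2 had 246 and 241 RPKM in number 1 and 44.8 to 48.7 RPKM in the other 4 libraries. Psma6 spanned 48.4 to 264 RPKM and was lowest in number 3. With libraries rescaled by median ratios Psma3 lost this order, which left 6 of 7, and with quantile normalization it was 7 of 7.

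Upstream sequence of 2 of these alpha genes is shown as an example of their promoters, picked after the levels were seen. Each line gives the 100 bases before the RefSeq transcript start (GRCm38.p6, a later build than the mm9 of the deposited values), 5′ to 3′ on the gene's strand, with matches to CCAAT, the letters of the CCAAT box, in capitals.
Psma1 (chr7:114276117-114276216, minus strand): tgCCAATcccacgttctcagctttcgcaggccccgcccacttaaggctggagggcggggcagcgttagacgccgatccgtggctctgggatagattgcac
Psma2 (chr13:14613142-14613241, plus strand): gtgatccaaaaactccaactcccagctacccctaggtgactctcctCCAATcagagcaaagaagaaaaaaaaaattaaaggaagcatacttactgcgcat
Within 250 bases upstream and on either strand, CCAAT was found in 5 of 7 alpha genes, 1 of 4 beta genes with a RefSeq promoter entry, 4 of 14 regulatory particle genes and 42.0% of 4502 tested genes with an entry. Of the other letters searched, described below, TGANNNNGC was found in 2 and CCGGAAG in 1 of the 7 alpha genes. A match is only a match of letters. Any part of it in the order of the numbers, called technical replicates in the labels, was not tested. In the subunit genes no match shared a base with a match to the other letters searched, and genes with 2 listed starts count if either holds the letters.

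Beta subunits did not follow the alpha ring: 1 of 7 was highest in number 1 by both methods, 4 in number 2 and 1 in number 3. These became 1, 2 and 3 with median-ratio scaling and 2, 3 and 1 with quantile normalization. The exception toward number 1 was Psmb7, which carries the trypsin-like site. It had 250, 78.9 and 32.0 RPKM after sonication and 212, 82.3 and 39.0 RPKM after tagmentation. Psmb5, with the chymotrypsin-like site, was highest in number 2 and had 232, 356 and 212 RPKM against 152, 367 and 245 RPKM. Psmb6, with the caspase-like site, had 178, 401 and 326 RPKM against 96.4, 372 and 327 RPKM. The highest of the 3 catalytic subunits was 1.41 times the lowest in sonication library 1 and 2.19 times in tagmentation library 1. In number 3, Psmb6 was 10.2 times Psmb7 after sonication and 8.38 times after tagmentation. The file names no treatment of reads that fit several places, and the gene names list pseudogenes of Psmb5, Psmb6 and Psmb7, so the levels of these 3 are uncertain to that extent. In the deposited RPKM Psmb1, a structural beta subunit, was among the steadiest of all members, with 319, 221 and 223 RPKM and 283, 294 and 364 RPKM. Psmb2, another structural member, spanned 82.8 to 374 RPKM and was highest in number 2.

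The ratio of the median alpha to the median beta level was 0.712 and 0.939 in the libraries of number 1 and between 0.135 and 0.249 in the other 4. The 2 kinds of subunit occur in equal numbers in the assembled core. The summed level of all 14 core genes was less uneven, with 2850, 2424 and 1620 RPKM after sonication and 2454, 2678 and 2055 RPKM after tagmentation.

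**Figure D2:**
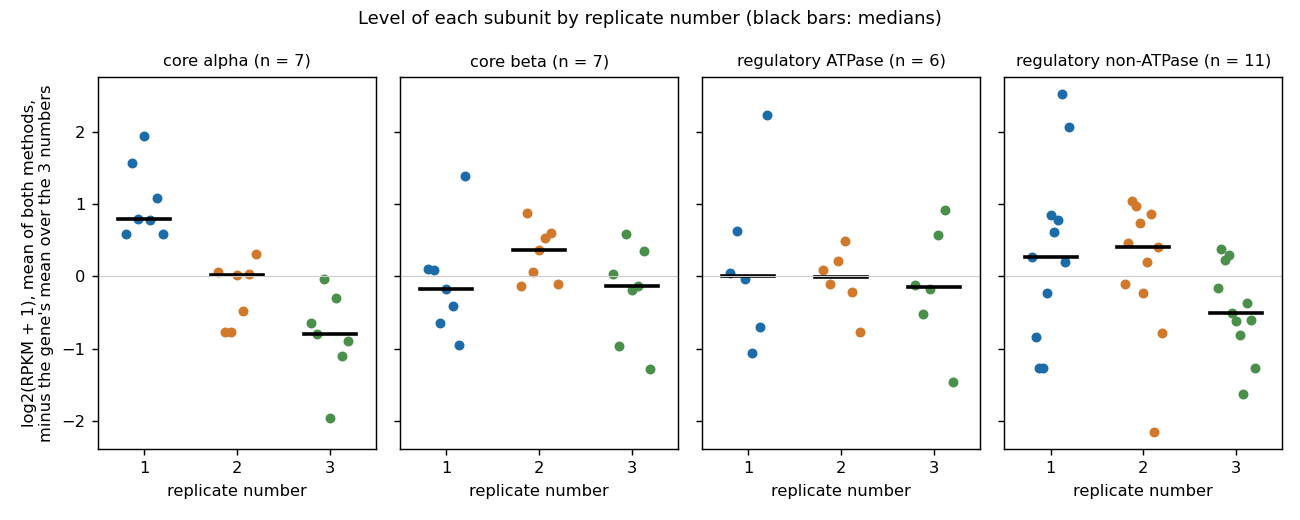
Level of each subunit in replicate numbers 1 to 3, as log2(RPKM + 1) averaged over both methods minus the gene's own mean over the numbers, in 4 panels by family; black bars are medians. All 7 alpha subunits lie above 0 in number 1, and the other families are spread on both sides of 0.

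Among the ATPases, levels in number 1 went in opposite directions for partners that sit in one ring. Psmc6 had 45.1, 11.9 and 6.75 RPKM after sonication and 68.8, 2.92 and 1.49 RPKM after tagmentation. Psmc5 had 189, 222 and 439.8 RPKM against 139, 235 and 575 RPKM, so it was highest in number 3, where Psmc6 was lowest. Psmc4 had its lowest values in number 1 (130.5 and 96.0 RPKM) and 306 to 398 RPKM in the other libraries. In contrast, Psmc1 had 48.0, 40.1 and 29.0 RPKM after sonication and 42.8, 53.8 and 55.2 RPKM after tagmentation. Psmc3 had 136, 132 and 94.2 RPKM against 80.6, 119 and 97.4 RPKM. In neither gene did a number stand apart from the others in both methods. Psmc2 lay between these and Psmc6, with 39.1 to 121 RPKM.

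The non-ATPase subunits of the regulatory particle ranged from uneven to steady. Psmd12, a scaffold subunit of its lid, had 88.4, 4.27 and 12.0 RPKM after sonication and 122, 2.18 and 14.3 RPKM after tagmentation. These rest on 4617, 162 and 390 reads and on 4412, 130 and 855 reads. Psmd14, the deubiquitinase that cuts the ubiquitin chain off a substrate, had 89.7, 13.2 and 13.2 RPKM and 107, 12.3 and 5.76 RPKM. Both were high in number 1 and low in the other 4 libraries, with no overlap between number 1 and the rest. Psmd7, the partner of Psmd14 in the lid, was also highest in number 1 but less uneven, with 166, 68.2 and 48.9 RPKM against 141, 75.4 and 60.8 RPKM.

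Psmd11, a lid subunit tied in human embryonic stem cells to proteasome activity, was lowest in number 3. It had 17.4, 16.5 and 1.98 RPKM after sonication and 19.7, 23.4 and 3.56 RPKM after tagmentation. Psmd4 and Psmd3, a lid subunit, instead had their lowest level in number 1. Psmd4 had 151, 565 and 324 RPKM against 82.7, 502 and 337 RPKM, and Psmd3 had 37.0, 152 and 83.8 RPKM against 18.8, 119 and 69.6 RPKM. The lid subunits Psmd8 and Psmd13 spanned 30.2 to 103 RPKM and 47.2 to 109 RPKM. Psmd1, the large scaffold subunit of the base, was steady in the deposited RPKM. It had 94.0, 61.7 and 52.5 RPKM after sonication and 85.6, 77.5 and 84.0 RPKM after tagmentation.

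Differences between the numbers were tested in limma (F test over 3 numbers with the method as a term, Benjamini-Hochberg adjusted over 6327 genes, threshold 0.05). Its error is how far the difference between methods varies over the numbers, pooled over all tested genes along a trend with level. The prior degrees of freedom were 209.7, so the error was mostly this pooled one and not the gene's own. Of the 31 subunits 26 were called, or 83.9%, against 88.1% of all tested genes. Among genes with a mean of at least 10 RPKM, 26 of the 31 and 3411 of 4023 genes were called. Of these 10 had a range of at least 4-fold between the means of the numbers, against 58.5% of all tested genes that were called with such a range. The median range was 1.48 on the log2 scale, or 2.79-fold (on the log2(RPKM + 1) scale, which understates changes of low genes), and 2.38 or 5.20-fold for all tested genes. Ranges were not compared at matched levels, and the subunits had the higher levels. By family, 7 of 7 alpha, 5 of 7 beta, 4 of 6 ATPase and 10 of 11 non-ATPase genes were called. Psmd12 had the widest range (4.68, 25.6-fold, limma adjusted p 3.67e-27), followed by Psma4 (15.1-fold), Psmc6 (12.9-fold), Psmd14 (10.1-fold) and Psmb7 (6.36-fold). Without the filter on low values the limma adjusted p of Psmd12 was 0.00272. Those not called were Psmc1 (1.16-fold, adjusted p 0.838), Psmb1 (1.18-fold), Psmc3 (1.30-fold), Psmd1 (1.34-fold) and Psmb4 (1.47-fold). A missed threshold does not show that these were equal. With median-ratio scaling Psmb1 was called (limma adjusted p 0.0413). With quantile normalization Psmb1, Psmb4 and Psmd1 were called (limma adjusted p 0.0204, 0.0302 and 0.0126). Psmc1 and Psmc3 were called with neither scaling. Calls fell to 15 without number 2 and 17 without number 3, and were 19 without number 1. Over all tested genes they fell as well, from 5577 to 3856, 4420 and 4557.

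The regulatory particle genes with the widest and the narrowest range both hold a short motif upstream. Their sequences are shown as examples, with that of a gene of the base scaffold. The capitals mark CTTCCGG, which is CCGGAAG, the core letters bound by ETS factors, read on the other strand.
Psmd12 (chr11:107479428-107479527, plus strand): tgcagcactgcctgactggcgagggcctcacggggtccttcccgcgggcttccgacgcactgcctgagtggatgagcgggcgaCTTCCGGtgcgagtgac
Psmc1 (chr12:100110102-100110201, plus strand): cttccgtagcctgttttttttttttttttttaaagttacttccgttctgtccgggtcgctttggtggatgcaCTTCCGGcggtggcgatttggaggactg
Psmd2 (chr16:20651552-20651651, plus strand): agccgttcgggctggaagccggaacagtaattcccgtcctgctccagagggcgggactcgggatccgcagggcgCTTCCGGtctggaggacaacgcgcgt
Psmd2 had 30.9, 62.7 and 50.3 RPKM after sonication and 23.6, 75.1 and 82.6 RPKM after tagmentation, lowest in number 1. CCGGAAG on either strand was found within 250 bases upstream of 8 of 14 regulatory particle genes with an entry, 1 of 11 core genes and 18.9% of 4502 tested genes. The letters TGANNNNGC, the core of the antioxidant response element, were found in 9 of 25 subunit genes and 41.3% of the tested genes. Psmd12 and Psmc1 both carried the 7 letters near the start. They were picked for their ranges between numbers, and any part of the letters in these ranges was not tested. Nothing was measured on binding at these sites.

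The comparison between sonication and tagmentation gave no call for any subunit. In limma without a term for the number, 0 of 31 had an adjusted p under 0.05 and 0 an unadjusted p under 0.05, where 0% of 6327 genes were called and 18 had an unadjusted p under 0.05. With the number as a block, which the correlations above call for, 0 of 31 were called again, against 3.29% (208) of the tested genes (1.58% higher and 1.71% lower after tagmentation), and 4 had an unadjusted p under 0.05 against 1061 of all tested genes. The 208 was not stable: fits with the block called 8 genes with a pseudocount of 0.1, 0 with median-ratio scaling or no filter, 10 without number 2 and 19 without number 3. They called 168 with a pseudocount of 5, 476 with quantile normalization and 1051 without number 1. The 3 libraries of a method overlapped those of the other in all 31 subunits, while 2.40% of the tested genes did not overlap. The median log2 fold change of RPKM + 1, positive where tagmentation was higher, was 0.032 for the subunits and 0.028 for all tested genes. It was above 0 in 18 and below 0 in 13 subunits, and the median turned to -0.018 with median-ratio scaling and to -0.11 with quantile normalization.

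The genes farthest from 0 show how far the methods differed. Psma3, an alpha subunit, had 106, 30.5 and 41.2 RPKM after sonication against 129, 49.4 and 104 RPKM after tagmentation, higher in each of 3 pairs (log2 fold change 0.75; with the block, SE 0.30 and limma adjusted p 0.152). Psmd6, a lid subunit, had 97.9, 170.2 and 61.5 RPKM against 123, 271 and 131 RPKM, also higher in 3 of 3 pairs (0.69; with the block, SE 0.30 and limma adjusted p 0.204). Psma1 had 93.4, 59.8 and 31.1 RPKM against 116, 86.8 and 61.0 RPKM (0.60; with the block, SE 0.30 and limma adjusted p 0.286). In all 3 genes the log2 difference was widest in number 3. The SE with the block was close to 0.30 in each because limma pools the variance over all tested genes. It is thus not the spread of the gene's own pairs. Without the block the SE was 0.63 for Psma3, 0.53 for Psmd6 and 0.57 for Psma1.

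On the other side, Psmc6 had the lowest value (-0.92; with the block, SE 0.30 and limma adjusted p 0.0577), with the direction reversed in number 1. Its log2 differences were 0.60, -1.72 and -1.64 in numbers 1, 2 and 3, a spread that the pooled SE does not show. In number 1 it had 2135 reads after sonication and 2260 after tagmentation, but 411 against 158 in number 2 and 199 against 81 in number 3. Psmd3 was lower after tagmentation in 3 of 3 pairs (-0.52; SE 0.30 with the block) and so was Psmb3, a beta subunit (-0.35; SE 0.30 with the block), which had 114, 153 and 211 RPKM against 66.3, 133 and 200 RPKM. The same direction in 3 pairs was seen in 8 of 31 subunits (5 higher and 3 lower), against 33.8% of the tested genes (19.6% higher and 14.2% lower). Without number 1 the fit with the block called 4 subunits, with Psma1, Psma3 and Psmd6 higher and Psmc6 lower after tagmentation, and 1051 genes in all.

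Within the pair numbered 1, all 7 beta subunits were lower after tagmentation, as were 3544 of 6327 tested genes. The median log2 difference was -0.44 for the beta subunits and -0.072 for all tested genes. The sonication library had 178 RPKM of Psmb6, 114 of Psmb3 and 232 of Psmb5, where the tagmentation library had 96.4, 66.3 and 152 RPKM. This is a contrast of 2 single libraries, with no test. The ATPases were lower in 5 of 6 (median -0.35), and the alpha subunits in 3 of 7 (median 0.074). In number 3 the subunits were mostly higher after tagmentation, 25 of 31, against 65.4% of the tested genes. Their median was 0.36 against 0.20 for all tested genes. The count became 21 of 31 with median-ratio scaling and 12 of 31 with quantile normalization, against 3434 and 3345 of 6327 tested genes. Rescaling by median ratios moved the medians of all tested genes to 0.0085 in number 2 and 0.048 in number 3. The 7 beta subunits then stayed lower in number 1 (median -0.31), and 6 of 7 did with quantile normalization.

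**Figure D3:**
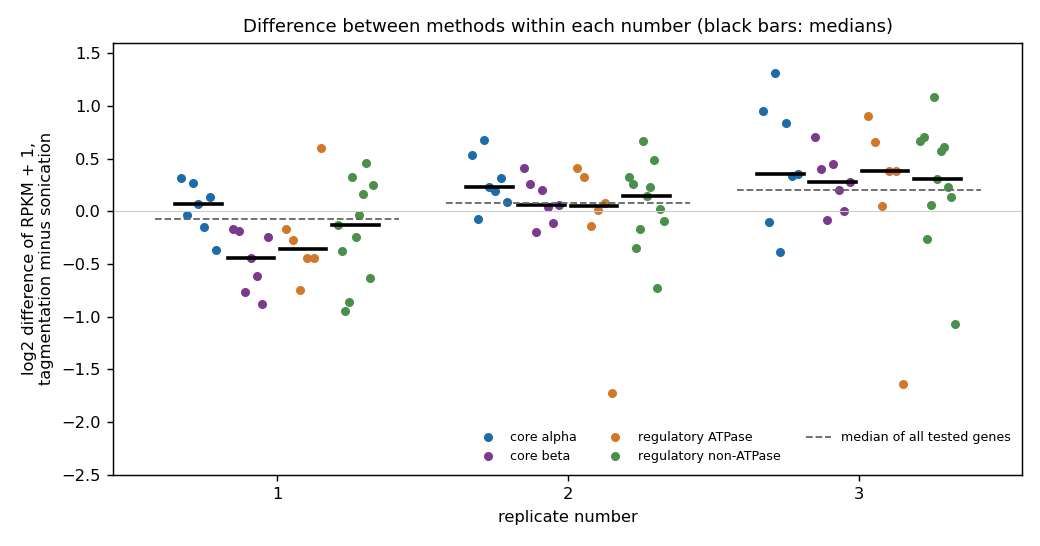
Difference of log2(RPKM + 1), tagmentation minus sonication, for each subunit within each replicate number, coloured by family; black bars are family medians and dashed lines the median of all tested genes. In number 1 all 7 beta subunits lie below 0, and in number 3 25 of 31 points lie above 0 (12 of 31 after quantile normalization, not drawn). Of the 6327 tested genes 3544 were lower in number 1 and 65.4% higher in number 3.

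The spread between replicates was smaller for subunits than for genes at large in both methods. The subunits also had higher levels (median of means 93.4 RPKM against 14.8 RPKM), and spread was not compared at matched levels. Taking each subunit's SD of log2(RPKM + 1) within a method, the median subunit had 0.86 with sonication and 0.80 with tagmentation, and the median tested gene 1.17 and 1.32. Tagmentation gave the wider spread in 14 of 31 subunits, against 66.7% of the tested genes. Within the complex, the beta subunits had the lowest median SD after sonication (0.44) and the alpha subunits a higher one (0.95); after tagmentation these were 0.80 and 0.71.

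Other genes of the pathway were taken from 8 lists of 44 genes, of which 42 were matched and 31 passed the filter on low values. Of the 31, 28 were called between numbers, 17 of them with a range of at least 4-fold, beside 88.1% and 58.5% of all tested genes. Called were 0 between methods without the block and 1 with it. Assembly factors of the core were among the least even. Psmg1, which pairs with Psmg2 to guide the alpha ring together, had 170, 28.5 and 0.162 RPKM after sonication and 163, 39.4 and 0.263 RPKM after tagmentation, the last resting on 3 and 9 reads. Psmg2 had 55.4, 1.76 and 43.1 RPKM against 61.9, 2.65 and 103 RPKM, so each partner was nearly missing in a different number. Psmg4 had 0 RPKM in the pair numbered 1 (3 reads amount to 0.0281 RPKM in the sonication library and 0.0405 RPKM in the tagmentation library). In numbers 2 and 3 it had 121 and 37.6 RPKM after sonication and 89.8 and 31.4 RPKM after tagmentation. Pomp, the chaperone that matures the beta ring, was even, with 173 to 359 RPKM, and was not called.

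The subunits that replace core members in other tissues were mostly low. Psmb8 and Psmb9, catalytic subunits of the immunoproteasome, were at 0.130 to 10.3 RPKM and at 0 to 0.322 RPKM, with Psmb8 at 10.3 and 9.31 RPKM in number 2 and under 0.3 RPKM in the other 4 libraries. Psmb10, the inducible counterpart of Psmb7, had 37.9, 8.45 and 6.85 RPKM after sonication and 17.2, 7.19 and 8.15 RPKM after tagmentation, so that number 1 was highest in each method. Psmb11, the thymus form, did not exceed 0.0136 RPKM. Psma8, the testis counterpart of Psma7, was not low: it had 14.0, 0.403 and 31.1 RPKM after sonication and 27.4, 0.563 and 117 RPKM after tagmentation. It was called higher after tagmentation with the block (log2 fold change 0.98, limma adjusted p 0.0354) and not without it (SE 1.72, adjusted p 1.00). With the block, the call was lost with a pseudocount of 0.1 (limma adjusted p 0.292), without the filter (0.698), with median-ratio scaling (0.189) and with number 1, 2 or 3 left out (0.0813, 0.999 and 0.925). The difference was widest in number 3, with 992 and 6843 reads. It kept its sign with a whole pair left out (0.54 to 1.40). With a single library left out, so that the pairs were broken, it turned to -0.40 without tagmentation library 3 and -0.34 without sonication library 2. Psma8 and Psma7 are close relatives whose shared reads may be divided between them, so both levels are uncertain to that extent.

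Activators and attached proteins held both even and uneven genes. Psme1, which forms an activator cap with Psme2, had 108, 54.0 and 10.3 RPKM after sonication and 97.3, 71.6 and 14.2 RPKM after tagmentation, while Psme2 kept to 25.5 to 48.0 RPKM and was not called. Shfm1 (Sem1), a small lid subunit, had the highest mean of its list with 169 to 506 RPKM. Uchl5, a deubiquitinase of the base, reached 33.8 and 104 RPKM in number 3, while the other 4 libraries had 2.00 to 2.65 RPKM. Psmd9, an assembly chaperone of the base, reached 29.6 and 40.5 RPKM in number 2 and stayed under 0.5 RPKM elsewhere, which kept it out of the test. Psmd5, another such chaperone, had 6.76, 15.2 and 29.7 RPKM against 6.67, 20.7 and 54.1 RPKM. Nfe2l1, the transcription factor that raises subunit genes when proteasome activity drops, had 17.3, 19.4 and 2.90 RPKM against 14.0, 29.1 and 4.45 RPKM. Its relative Nfe2l2 was the widest tested gene of its list, with 70.0, 4.53 and 0.773 RPKM against 92.1, 7.42 and 0.105 RPKM.

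Ubiquitin itself was abundant and its tested genes were more even between numbers, though ranges were not compared at matched levels. Ubb, a polyubiquitin gene, had 843, 1676 and 1405 RPKM after sonication and 501, 1444 and 1299 RPKM after tagmentation. The 4 tested genes of ubiquitin and its activation were all called between numbers, as were 88.1% of all tested genes, and 0 of them had a 4-fold range, against 58.5%. Uba1, the main ubiquitin-activating enzyme, was the widest of the tested genes of the list with 28.5, 94.4 and 85.3 RPKM against 18.2, 89.9 and 97.8 RPKM. Its range was 1.97 on the log2 scale, just under 4-fold. Uba6, of the same list, had 0.0114 to 2.98 RPKM and was kept out of the test by the filter on low values. Among shuttles and the segregase, Vcp, which pulls ubiquitinated proteins out of complexes, had the highest mean and 32.1 to 101 RPKM over the libraries. Ubqln1, a shuttle that brings substrates to the proteasome, had the widest range among the tested genes of that list, with 22.3, 4.42 and 2.80 RPKM against 26.2, 1.75 and 1.01 RPKM.

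**Figure D4:**
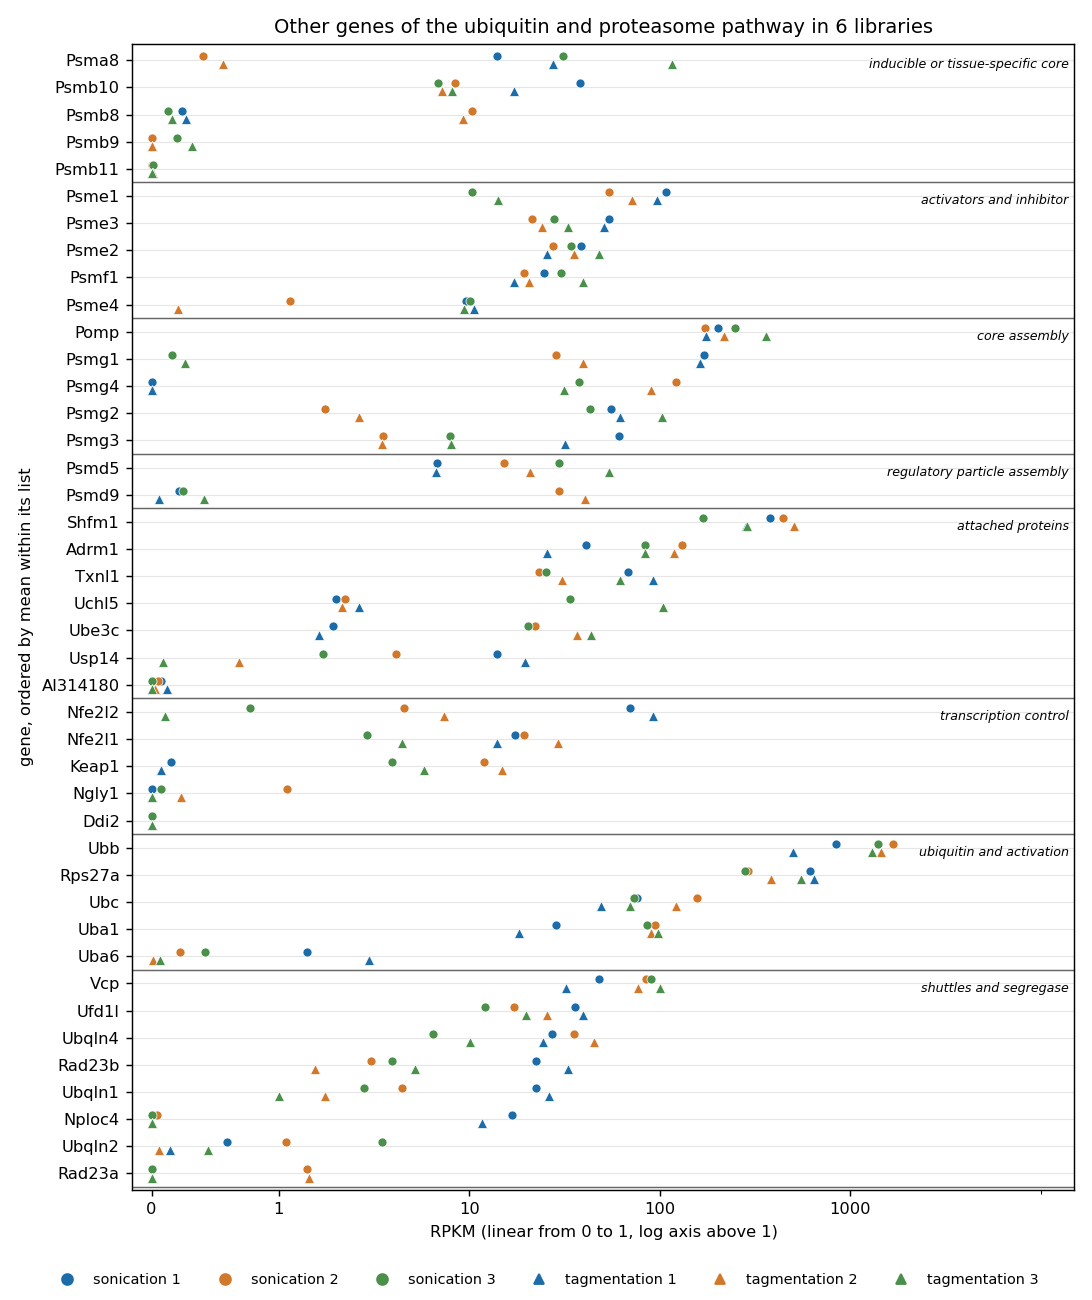
RPKM of 42 other genes of the ubiquitin and proteasome pathway in each library, by list; circles are sonication, triangles tagmentation, and colours the replicate number, on an axis that is linear from 0 to 1 and logarithmic above. Ubb lies at the top, from 501 to 1676 RPKM, and Psmg1, Psmg4 and Psma8 run from under 1 to over 100 RPKM.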

How the data were processed

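The authors deposited 1 table of RPKM per gene for 6 libraries, and the submitters' processing notes name CASAVA 1.7.0, Partek and mm9. Neither labels nor headers state the alignment settings, the gene models or how multi-mapping reads were counted. Alignments per library are per the file headers, and 0 columns belonged to no sample. log2(RPKM + 1) was fitted in limma 3.58.1 (R 4.3.3) with a mean-variance trend, on 6327 of 12331 genes with at least 1 RPKM in at least 3 libraries, with Benjamini-Hochberg adjustment over these and a threshold of 0.05. The main fit had the method only. The numbers were then taken to pair the libraries. Over all tested genes, deviations from the method means correlated by 0.952, 0.969 and 0.934 in same-numbered pairs and by -0.175 or less in others. Deviations within a method sum to 0, which by itself pushes the others below 0. Over the subunits, those between numbers 2 and 3 were 0.186 and 0.114. The labels do not say what a number shares. Reads were recovered as whole multiples within 0.002 plus 6e-06 of the reads. Values are printed in full for the highest, lowest, widest and narrowest subunits, the catalytic subunits, Psmd4, Psmd14 and the 3 highest and 3 lowest fold changes. In the other lists they are printed for called, highest and widest genes, and other genes named were chosen after their values were seen. Members and lists were chosen with earlier results of these data known. The script was tested on simulated data. Promoters are from RefSeq (GRCm38.p6), matched by symbol for 25 of 31 genes. Psmd10, Paaf1, Postn, Gata6, Sox17 and Sox1 were not analysed here. In the lists of other pathway genes, 1 gene is not reported here.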

Additional observations from a re-analysis of the deposited data

How the results depend on the processing

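The count of subunits called between methods was 0 with each pseudocount, filter and scaling without the block, and 0 to 4 when libraries or numbers were left out. The 4 came with the replicate block and without number 1. Combined settings chosen after seeing the data gave 1 call with the replicate block and a mean of at least 10 RPKM (Psmc6, limma adjusted p 0.0427; 168 of 4023 genes called in all) and 4 with the replicate block and quantile normalization (Psma3, Psmb3, Psmd3 and Psmd6; 476 of 6327 genes). The replicate block alone left the count at 0 and added Psma8, a call lost under 6 of the 9 other settings with the block. The median log2 fold change of the subunits ranged from -0.26 (without sonication library 3) to 0.52 (without sonication library 1), and was 0.31 without tagmentation library 3. Without tagmentation library 1, Psmd3 turned to 0.22 and Psmb3 to 0.080. Psma8 turned to -0.34 without sonication library 2 and to -0.40 without tagmentation library 3. These fits break a pair. With the replicate block and a whole number left out, Psmd3 stayed between -0.65 and -0.31, Psmb3 between -0.48 and -0.14 and Psma8 between 0.54 and 1.40. Over all left-out libraries Psmd3 ranged from -1.08 to 0.22, Psmb3 from -0.71 to 0.080 and Psma8 from -0.40 to 2.72. Calls between numbers were 15 to 19 with a number left out and 23 to 29 under the other settings. The cause was not tested, other than that fewer libraries entered the fits with some left out.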
